A study of Mus musculus with 7 samples.

Results

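The genes described here are 10 CC chemokines of the mouse: Ccl2, Ccl7, Ccl8 and Ccl12, called the monocyte-attracting subgroup, Ccl3, Ccl4, Ccl6 and Ccl9, called the Ccl3 to Ccl9 subgroup, and Ccl22 with Ccl24. They were taken by gene symbol from a table of 23361 genes, in which all 10 were found, and all 10 passed the expression filter that left 12858 genes to test. Macrophages had been sorted as Lin-F4/80+CD14+CD11b+CD16/32+ cells from the regenerative bridge, the tissue that grows inside a conduit joining the cut stumps of the sciatic nerve. The mice were wild-type BALB/cJ, the only injury was transection with conduit repair, and the 3 groups differ in the time since repair: day 5 (3 libraries), day 14 (2 libraries) and day 28 (2 libraries). No uninjured or untreated macrophages were among these libraries, and the age of these mice is not given in the sources used here. The labels do not tie libraries to separate animals, so the p-values measure the spread between these libraries, part of which may be technical.

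CC chemokines are small secreted proteins with a pair of adjacent cysteines near the amino end, and they guide leukocytes along gradients by acting on G protein-coupled receptors. Ccl2, Ccl7 and Ccl12 act on CCR2 and draw classical monocytes out of the blood, while Ccl3, Ccl6 and Ccl9 act through CCR1, and they and Ccl4 draw monocytes and other leukocytes. Ccl22 is the ligand of CCR4 on T helper 2 and regulatory T cells, and Ccl24 (eotaxin-2) is a ligand of CCR3 on eosinophils. In injured nerve, Ccl2 from Schwann cells and macrophages is known for recruiting the blood monocytes that become most of the macrophages of the lesion.

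The 8 genes of the first 2 subgroups lie on mouse chromosome 11 in 2 blocks (GRCm38, GENCODE annotation). The monocyte-attracting block spans 81.2 kb, with Ccl2 (chr11:82035571-82037453), Ccl7 (chr11:82045712-82047525), Ccl12 (chr11:82101845-82103400) and Ccl8 (chr11:82115185-82116799) all on the plus strand. After a gap of 1456.1 kb comes the second block of 91.8 kb, with Ccl9 (chr11:83572919-83578636), Ccl6 (chr11:83587882-83593087) and Ccl3 (chr11:83647844-83649355) on the minus strand and Ccl4 (chr11:83662584-83664683) on the plus strand. Ccl22 (chr8:94745590-94751699, plus strand) lies 58.8 kb from Ccl17, and Ccl24 (chr5:135569937-135573049, minus strand) lies 6.4 kb from Ccl26.

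Promoters were available for 6 of the 10 genes in RefSeq on GRCm38.p6 (Ccl8, Ccl12, Ccl3, Ccl6, Ccl9 and Ccl22). The sequences of 2 pairs of neighbours are shown: Ccl12 and Ccl8, which were lower in both day 28 libraries than in any day 5 library, and Ccl6 and Ccl9, which were alike in both day 14 libraries. Each run holds the 250 bases before the start site, read 5′ to 3′ on the strand of the gene, from chr11:82101595-82101844 (plus) for Ccl12, chr11:82114935-82115184 (plus) for Ccl8, chr11:83593088-83593337 (minus) for Ccl6 and chr11:83578637-83578886 (minus) for Ccl9. Capitals mark matches on either strand to the letters of the TATA box, to those of the AP-1 and STAT motifs spelled out after the sequences, or to the STAT6 and kappaB motifs.
Ccl12: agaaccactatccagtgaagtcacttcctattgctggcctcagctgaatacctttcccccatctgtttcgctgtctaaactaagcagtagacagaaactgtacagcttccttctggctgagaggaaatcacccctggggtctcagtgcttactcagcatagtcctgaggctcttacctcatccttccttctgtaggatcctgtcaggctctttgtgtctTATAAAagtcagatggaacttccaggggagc
Ccl8: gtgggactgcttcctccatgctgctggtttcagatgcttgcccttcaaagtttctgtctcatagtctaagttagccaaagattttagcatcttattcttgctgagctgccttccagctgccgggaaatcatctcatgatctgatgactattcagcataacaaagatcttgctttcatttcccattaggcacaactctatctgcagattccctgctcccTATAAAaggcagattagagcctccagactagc
Ccl6: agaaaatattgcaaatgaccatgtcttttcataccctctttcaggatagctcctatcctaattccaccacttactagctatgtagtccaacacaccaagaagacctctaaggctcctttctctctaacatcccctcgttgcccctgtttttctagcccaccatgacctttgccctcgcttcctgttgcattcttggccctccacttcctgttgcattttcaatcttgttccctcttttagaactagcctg
Ccl9: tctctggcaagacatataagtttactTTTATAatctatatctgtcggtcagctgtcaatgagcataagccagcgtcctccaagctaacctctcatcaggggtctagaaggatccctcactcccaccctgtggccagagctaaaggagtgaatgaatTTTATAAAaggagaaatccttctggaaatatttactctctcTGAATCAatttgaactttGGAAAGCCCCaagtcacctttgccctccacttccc

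The TATA box letters TATAAA began 31 bases before the start of Ccl12 and 32 bases before that of Ccl8, and they were found in 3 of the 6 promoters, against 13.6% of the 32851 mouse promoters of the same length (300 bases, 50 of them after the start). In Ccl9 they began 92 bases before the start and overlapped a match on the other strand. The AP-1 letters TGANTCA (7.81% of all promoters) and the kappaB motif (8.46%) were each found in 1 promoter, that of Ccl9. The STAT letters TTCNNNGAA (8.3%) and the STAT6 motif (6.95%) were in none of the 6. Over the whole windows, Ccl12 and Ccl8 were identical at 55.7% of aligned columns, the highest of the 15 pairs, and Ccl6 and Ccl9 shared the longest run, gccctccacttcc, which began 55 and 14 bases before their starts. These are matches of letters only, and no binding was measured.

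The libraries held between 18027190 and 35247116 fragments assigned to genes, and each chemokine but Ccl12, Ccl22 and Ccl24 had at least 1235 fragments in every library. The lowest counts were 76 for Ccl22, 174 for Ccl12 and 874 for Ccl24. All 7 macrophage markers examined were expressed throughout, for example Csf1r at 406 to 493 FPKM and Cd68 at 916 to 1287 FPKM, whereas Elane (neutrophil) and Fcer1a (mast cell) were at 0 in every library. The eosinophil gene Epx and the glial gene Gfap did not exceed 3 fragments in any library. FPKM is the number of fragments scaled to the length of the transcript and the size of the library, and levels are compared between genes on this scale only.

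The 2 day 14 libraries differed widely for these genes. At day 14, replicate 1 was at least 2 times replicate 2 for 7 of the 10 chemokines, in terms of FPKM, against 6.59% of the genes tested (843 of 12790 with a value above 0 in both). The ratio was 4.26 for Ccl7, 3.53 for Ccl2, 3.45 for Ccl8, 3.19 for Ccl4, 2.37 for Ccl12, 2.36 for Ccl22 and 2.10 for Ccl3. Ccl24 (1.23), Ccl6 and Ccl9 (both 1.05) were alike in both libraries. The summed FPKM of 6 fibroblast markers was 220 in replicate 1 and 80.3 in replicate 2 (day 5: 28.8 to 73.4, day 28: 35.1 to 56.7), and that of 5 erythroid markers 56.6 and 7.73 (day 5: 31.2 to 46.6, day 28: 3.86 to 12.2). Their part in the chemokine values was not tested, and globin genes share reads with near-identical copies. From 2 libraries it cannot be told which of them is unusual. Replicate 2 was the lowest of all libraries for Ccl2, Ccl4, Ccl7 and Ccl8, and replicate 1 the highest for Ccl3 and Ccl8. The main results that involve day 14 are therefore also given with 1 of its libraries left out.

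At day 5, 7 of the 10 genes ranked between 30 and 196 by mean FPKM among all genes, and Ccl12, Ccl24 and Ccl22 ranked 919, 2145 and 6379. Ccl6 was highest at 1611 ± 77.2 FPKM (mean ± SD, n = 3), and no library of it overlapped with Ccl8 (885 ± 159), which in turn lay above Ccl7 (617 ± 59.4) in each library. Ccl7, Ccl2 (569.8 ± 72.2), Ccl3 (509.7 ± 115), Ccl9 (468 ± 18.4) and Ccl4 (453 ± 103) followed, and neighbours in this order overlapped. Ccl12 (97.2 ± 2.48), Ccl24 (39.7 ± 5.85) and Ccl22 (7.67 ± 5.19) came last, each apart from the next. By day 28 the order had become Ccl6 (1127 ± 305, n = 2), Ccl9 (453 ± 85.9), Ccl8 (445 ± 18.1), Ccl3 (342 ± 73.5), Ccl4 (286 ± 60.5), Ccl2 (158 ± 47.0), Ccl7 (151 ± 11.9), Ccl24 (113 ± 1.55), Ccl12 (32.9 ± 8.39) and Ccl22 (21.0 ± 8.56). There the ranges of Ccl9 and Ccl8, Ccl3 and Ccl4, Ccl2 and Ccl7, and Ccl12 and Ccl22 overlapped, whereas Ccl24 lay between Ccl7 and Ccl12 without touching either.

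**Figure D1:**
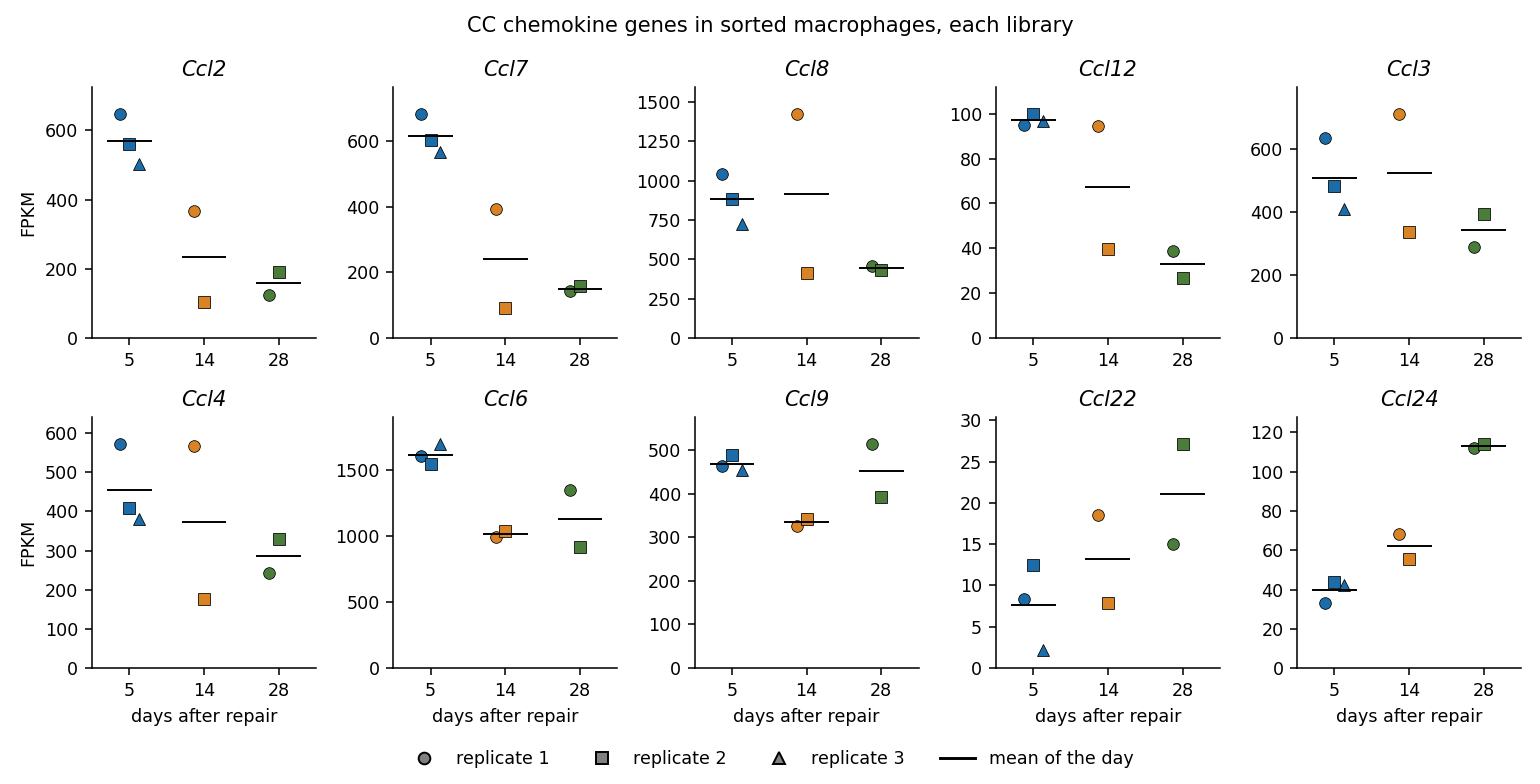
FPKM (vertical axes, linear from 0, scaled per gene) of the 10 CC chemokine genes against days after repair, where each point is 1 library, its shape gives the replicate number and the line is the mean of the day. Ccl2 and Ccl7 are highest in the 3 day 5 libraries, Ccl24 is highest in both day 28 libraries, and replicate 1 of day 14 lies well above replicate 2 for 7 genes.

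Among the monocyte-attracting genes, Ccl2, Ccl7 and Ccl12 fell between days 5 and 28 with log2 differences of -1.53 to -2.02, while Ccl8 did not pass the test. Ccl2 (MCP-1), the main CCR2 ligand, was at 647, 559.6 and 503 FPKM in the day 5 libraries, 366 and 104 at day 14, and 125 and 191 at day 28. Ccl7 (MCP-3), also a CCR2 ligand, was at 682, 602 and 566 FPKM at day 5, 392 and 92.0 at day 14, and 142 and 159 at day 28. For both genes all 3 day 5 libraries lay above all later ones, and the day 28 values lay between those of the day 14 libraries. The log2 difference of day 28 from day 5 was -1.84 ± 0.44 (SE) for Ccl2 (adjusted p = 0.0237) and -2.02 ± 0.47 for Ccl7 (adjusted p = 0.022, edgeR quasi-likelihood test with Benjamini-Hochberg adjustment). Both calls were lost in edgeR fits that left out any 1 day 5 or day 28 library, with adjusted p of 0.0507 to 0.185 for Ccl2 and 0.0504 to 0.162 for Ccl7. Without day 14 replicate 1 they were 4.74e-05 and 3.38e-06.

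Ccl12 (MCP-5), a mouse CCR2 ligand without a human counterpart of that name, was the steadiest of all 10 genes at day 5, at 94.9, 99.8 and 96.9 FPKM. It was at 94.5 and 39.9 FPKM at day 14 and at 38.9 and 27.0 at day 28. Thus 1 of the day 14 libraries was close to day 5 and the other close to day 28. Its level dropped by 1.53 ± 0.32 on the log2 scale from day 5 to day 28 (adjusted p = 0.0137, edgeR with Benjamini-Hochberg adjustment). That adjusted p was 0.0688 without day 28 replicate 1 and 0.0927 without day 28 replicate 2.

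Ccl8 (MCP-2), the most abundant monocyte chemoattractant protein gene here, was at 1045, 884 and 727 FPKM at day 5, 1422 and 413 at day 14, and 458 and 432 at day 28. The day 28 libraries lay below all of day 5, while day 14 held both the highest and the lowest value. The log2 difference of day 28 from day 5 was -0.98 ± 0.41 and did not pass the test (adjusted p = 0.136, edgeR with Benjamini-Hochberg adjustment). It passed without day 14 replicate 1 (adjusted p = 0.000713) or without day 14 replicate 2 (0.00085), since the fit takes 1 estimate of the spread from all libraries.

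Ratios within a library describe how these neighbours moved relative to each other. Ccl2 and Ccl7 kept together, with a Ccl2 to Ccl7 ratio of FPKM between 0.875 and 1.20 in the 7 libraries. In contrast, the ratio of Ccl8 to Ccl7 was 1.29 to 1.53 at day 5 and 2.72 to 4.48 in the 4 later libraries, so that the ranges did not overlap. The ratio of Ccl2 to Ccl12 was 5.19 to 6.82 at day 5 and 3.88 and 2.60 at day 14, while the day 28 libraries, at 3.21 and 7.08, spanned both.

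In the Ccl3 to Ccl9 subgroup no gene passed the test in any comparison. Ccl6, a CCR1 ligand of mouse macrophages, had the highest mean of the 10 genes on every day, although Ccl8 exceeded it in day 14 replicate 1. It was at 1599, 1539 and 1693 FPKM at day 5, 993 and 1039 at day 14, and 1343 and 912 at day 28. All day 5 libraries lay above the later ones. The log2 difference from day 5 was -0.66 ± 0.17 at day 14 and -0.50 ± 0.17 at day 28, with edgeR p-values of 0.0562 and 0.0732 after Benjamini-Hochberg adjustment. Leaving out 1 library moved these adjusted p between 0.0384 and 0.152 and between 0.0355 and 0.271. The day 14 difference passed without day 28 replicate 1 or 2, and the day 28 difference without day 28 replicate 1 or either day 14 library.

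Ccl9, another CCR1 ligand and the gene next to Ccl6, was at 463, 489 and 454 FPKM at day 5, 327 and 342 at day 14, and 513 and 392 at day 28. It was lowest at day 14, where neither library reached the range of day 5 or day 28. Relative to day 5 the log2 difference was -0.48 ± 0.14 at day 14 and -0.04 ± 0.14 at day 28, with edgeR p-values of 0.0822 and 0.888 after Benjamini-Hochberg adjustment. The ratio of Ccl6 to Ccl9 was 3.15 to 3.73 at day 5, 3.04 in both day 14 libraries, and 2.62 and 2.33 at day 28.

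Ccl3 (MIP-1α) and Ccl4 (MIP-1β), inflammatory chemokines released early by activated macrophages, had wide spreads. Ccl3 was at 635, 484 and 410.0 FPKM at day 5, 711 and 338 at day 14, and 290.2 and 394 at day 28. Ccl4 was at 572, 408 and 380.1 FPKM at day 5, 567 and 177 at day 14, and 243 and 329 at day 28. For both, the day 28 libraries lay below all of day 5, and day 14 overlapped with both other days. The log2 differences of day 28 from day 5 were -0.56 ± 0.30 for Ccl3 (adjusted p = 0.229) and -0.65 ± 0.40 for Ccl4 (adjusted p = 0.295, edgeR with Benjamini-Hochberg adjustment). Without day 14 replicate 1 the latter reached an adjusted p of 0.0269, and without day 14 replicate 2 one of 0.0289. The Ccl3 to Ccl4 ratio stayed between 1.08 and 1.25 in 6 libraries and was 1.91 in day 14 replicate 2.

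Ccl22 was also higher at day 28 than at day 5, but Ccl24 was the 1 gene of the 10 that was called higher. It was at 33.0, 43.8 and 42.2 FPKM at day 5, 68.3 and 55.6 at day 14, and 112 and 114 at day 28, with no overlap between any days. The rise from day 5 to day 28 was 1.52 ± 0.14 on the log2 scale (adjusted p = 0.000706, edgeR with Benjamini-Hochberg adjustment), and it was called in each of the 15 alternative settings, with adjusted p up to 0.0128. From day 5 to day 14 it rose by 0.65 ± 0.14 (adjusted p = 0.0395), a call lost in fits without any 1 library other than day 14 replicate 2 (adjusted p = 0.0642 to 0.112). The step from day 14 to day 28 was 0.87 ± 0.16 and missed the threshold (adjusted p = 0.08, edgeR with Benjamini-Hochberg adjustment), although both day 28 libraries lay above both day 14 libraries. It passed without day 14 replicate 2 (adjusted p = 0.0457). The 5 eosinophil markers, genes of the cells that Ccl24 attracts, summed to 1.79 to 2.23 FPKM at day 5, 5.71 and 1.79 at day 14, and 3.40 and 3.38 at day 28. Of them Siglec5, the mouse Siglec-F gene, rose by 1.85 ± 0.36 from day 5 to day 28 (adjusted p = 0.0105), at levels of 0.413 to 1.91 FPKM over all libraries, and Epx was at 1 fragment in 1 library and 0 in the others.

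Ccl22, made by macrophages and dendritic cells, had the lowest mean of the 10 genes on each day, at 8.41, 12.5 and 2.15 FPKM at day 5, 18.5 and 7.83 at day 14, and 15.0 and 27.1 at day 28. Both day 28 libraries lay above day 5, but the 3 day 5 libraries alone differed 5.79-fold, a spread that 1.83% of the tested genes reached at day 5. The log2 difference of day 28 from day 5 was 1.46 ± 0.57 (adjusted p = 0.117, edgeR with Benjamini-Hochberg adjustment), and it reached 0.0497 without day 14 replicate 1. The summed FPKM of 5 dendritic cell markers moved with it, at 8.02 to 12.8 FPKM at day 5, 24.7 and 10.8 at day 14, and 19.7 and 30.1 at day 28, with the lowest value in the same day 5 library and the highest in the same day 28 library. Much of that sum is Ccr7, the only 1 of the 5 that was called, at 3.73 to 8.27, 7.16 to 15.1 and 12.6 to 23.0 FPKM on the 3 days, while Zbtb46 was highest in day 14 replicate 1 (1.62 FPKM) and Flt3 lowest in day 28 replicate 1 (0.15 FPKM). Their part in the Ccl22 values was not tested, and in sorted bulk samples fewer cells of a type and less RNA per cell cannot be told apart.

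**Figure D2:**
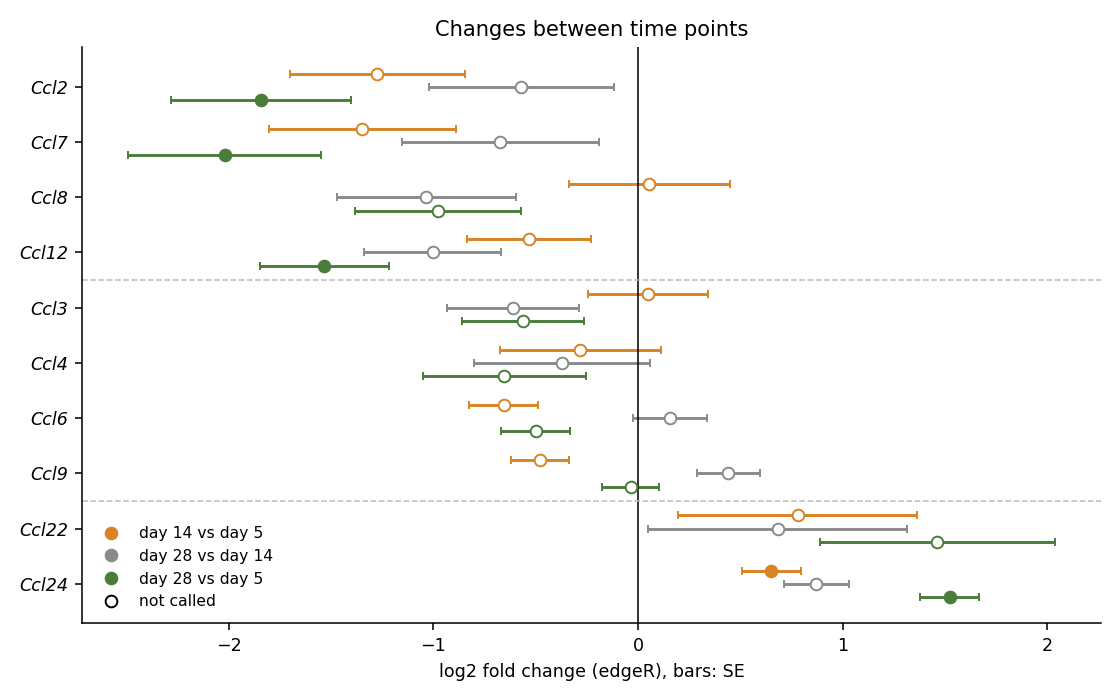
Log2 fold changes (horizontal axis) with SE from the edgeR fit for each of the 10 genes and each pair of days, filled where the adjusted p is under 0.05 and open otherwise, with dashed lines between the 3 subgroups. The filled points are Ccl2, Ccl7 and Ccl12 to the left of 0 and Ccl24 to the right for day 28 against day 5, and Ccl24 for day 14 against day 5.

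Counted by comparison, day 28 against day 5 held 4 calls among the 10 genes, 3 lower and 1 higher, where 7.51% of all tested genes were called lower and 7.74% higher. The FPKM of the libraries did not overlap for 7 genes that were lower (25.6% of all genes) and 2 that were higher (26.0% of all genes). The median log2 difference was -0.61 over the 10 genes and 0.03 over all genes. For day 14 against day 5, 1 gene was called higher (2.84% of all genes) and none lower (1.94% of all genes), and 5 genes had an unadjusted p under 0.05 (3083 of all 12858). DESeq2 called 3 (Ccl24 higher, Ccl6 and Ccl9 lower), at 10.6% of all genes, and limma on log2(FPKM + 1) called 0, at 2.03%. The libraries did not overlap for 5 genes that were lower (21.4% of all genes) and 1 that was higher (21.9% of all genes), with a median log2 difference of -0.38 against 0.03 over all genes. Between days 14 and 28 edgeR called none of the 10, at a background of 0.0311% of all genes in each direction. There 4 genes had an unadjusted p under 0.05 (12.2% of all genes), DESeq2 called 1 (Ccl24 higher, at 2.47% of all genes) and limma 0. The libraries did not overlap for 2 genes that were higher (19.3% of all genes) and 1 that was lower (19.7% of all genes), and the median was -0.47 against 0.01 over all genes. The comparisons of days 14 and 28 with day 5 share the 3 day 5 libraries, so their values are not independent of each other.

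The result for day 14 rested on which of its libraries was used. Without replicate 1, edgeR called 5 genes lower at day 14 than at day 5, with log2 differences of -2.44 for Ccl2 (adjusted p = 0.000226), -2.73 for Ccl7 (1.59e-05), -1.27 for Ccl12 (0.00368), -1.34 for Ccl4 (0.00546) and -1.09 for Ccl8 (0.00404, Benjamini-Hochberg). In that fit 7.34% of all genes were called lower, and Ccl24 was not called. Without replicate 2 those of Ccl2 and Ccl7 were -0.63 (adjusted p = 0.206) and -0.65 (0.0589), and that of Ccl12 was -0.03 (0.958). Leaving out replicate 2 also gave 7 calls between days 14 and 28, with Ccl2, Ccl3, Ccl4, Ccl7, Ccl8 and Ccl12 lower and Ccl24 higher, where 3.29% of all genes were called lower and 1.41% higher. Leaving out replicate 1 gave 0, at 0.248% of all genes called in either direction. The median log2 difference of the 10 genes at day 14 from day 5 was -0.85 without replicate 1 and 0.15 without replicate 2, and that of day 28 from day 14 was 0.50 and -1.01, so that its direction turned with the library, while the medians over all genes stayed between 0.00 and 0.03. In these fits the lone day 14 library is assumed to vary like the libraries of the other days. Ccl24, Ccl6 and Ccl9 depended less on the choice in the day 14 against day 5 comparison, with log2 differences of 0.50 to 0.79, -0.69 to -0.61 and -0.51 to -0.44 over all fits with 1 library left out.

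The 3 subgroups took different courses. The monocyte-attracting genes summed to 2169 ± 288 FPKM at day 5 (SD, n = 3), 1462 ± 1150 at day 14 (n = 2; 2275 and 648) and 787 ± 32.4 at day 28 (n = 2). The Ccl3 to Ccl9 genes summed to 3042 ± 196, 2247 ± 496 and 2208 ± 256 FPKM, and Ccl22 with Ccl24 to 47.3 ± 7.86, 75.1 ± 16.5 and 134 ± 10.1 FPKM. At day 28 both libraries lay below all of day 5 for the first 2 sums and above all of day 5 for the third. Of the summed level of the 10 genes, the monocyte-attracting subgroup took 41.1% on average at day 5 and 25.2% at day 28, the Ccl3 to Ccl9 subgroup 57.9% and 70.5%, and Ccl22 with Ccl24 0.908% and 4.30%. The median log2 difference of day 28 from day 5 was -1.69, -0.53 and 1.49 in the 3 subgroups, against 0.03 over all genes, with 3 of 4, 0 of 4 and 1 of 2 genes called. The difference between subgroups itself was not tested, since their members were chosen with results of these data known.

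**Figure D3:**
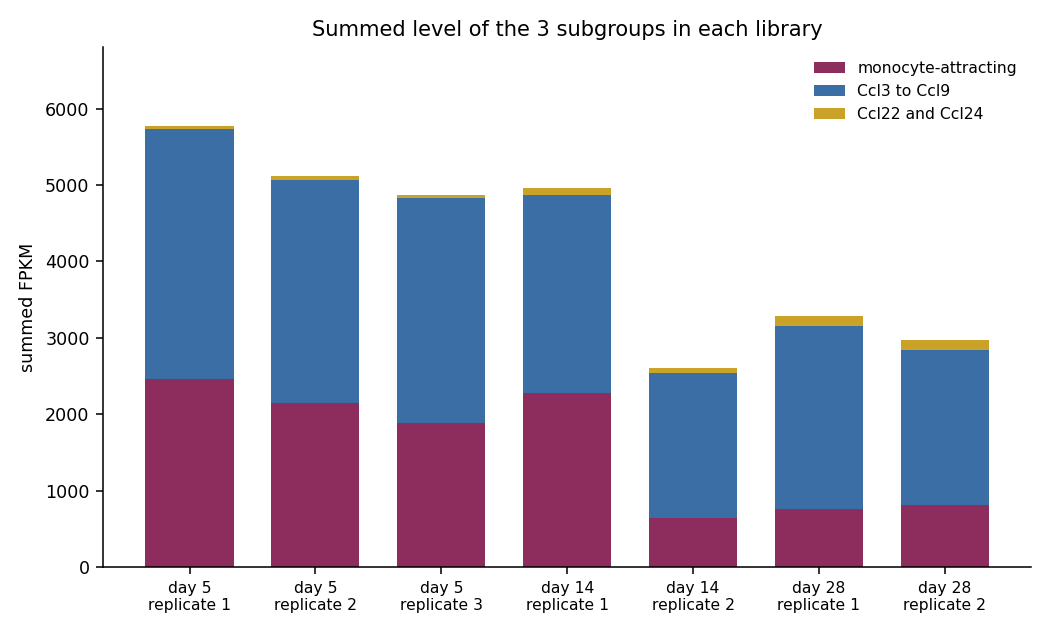
Summed FPKM (vertical axis, from 0) of the 3 subgroups in each of the 7 libraries, stacked. The monocyte-attracting part is 1892 to 2468 at day 5, 2275 and 648 in the day 14 libraries and 764 and 810 at day 28, while Ccl22 with Ccl24 grows from at most 56.3 at day 5 to 127 and 141 at day 28.

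By position, the 3 called falls were all in the first block, and the log2 difference of day 28 from day 5 was -0.98 or lower for each of the 4 genes tested there. Ccl11, which lies between Ccl7 and Ccl12, was not tested, at 1.33 FPKM or less in every library. In the second block the 4 genes lay between -0.65 and -0.04. Ccl5 (RANTES), next to that block, was at -0.32 ± 0.43 (adjusted p = 0.647, edgeR with Benjamini-Hochberg adjustment). The neighbours of the other 2 genes differed: Ccl17, next to Ccl22, was expressed at 1.31 to 10.1 FPKM, whereas Ccl26, next to Ccl24, was at 0 in 6 libraries and at 3 fragments in day 14 replicate 2.

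**Figure D4:**
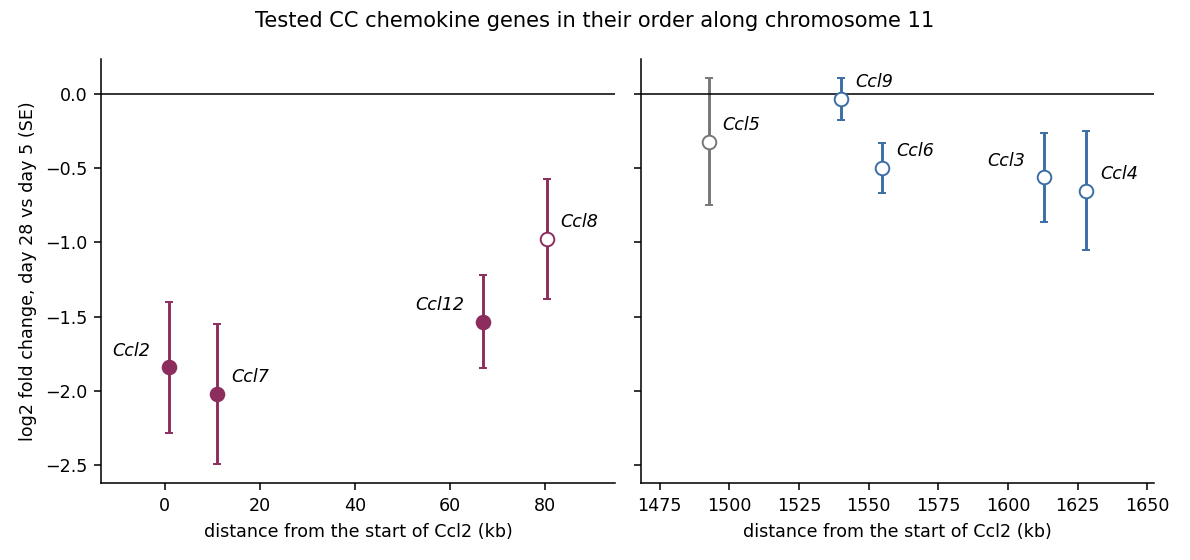
Log2 difference of day 28 from day 5 (vertical axis, SE bars) for the tested CC chemokine genes of chromosome 11, placed by the distance of the gene's middle from the start of Ccl2 in kb, with both blocks in separate panels; filled points have an adjusted p under 0.05 and Ccl5 (grey) is not one of the 10 genes. The first block runs from -2.02 (Ccl7) to -0.98 (Ccl8) and the second from -0.65 (Ccl4) to -0.04 (Ccl9).

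The receptors through which these ligands act were partly present in the same cells. Of 29 other CC ligands and CC receptors 10 passed the expression filter, among them Ccl5, Ccl17, Ccl25, Ccr1, Ccr2, Ccr3 and Ccr7. None was called between days 5 and 14 (3 at an unadjusted p under 0.05, DESeq2 2, limma 0). Between days 14 and 28 none was called either (1, 1 and 0). In these comparisons 3083 of all 12858 genes and 12.2% of all genes had an unadjusted p under 0.05. DESeq2 called 10.6% and 2.47% of all genes there, and limma 2.03% and 0.00%. Of the 10, 2 were called higher at day 28 than at day 5, where 7.74% of all genes were called higher. The median log2 difference of the 10 was 0.11, -0.06 and 0.24 in the 3 comparisons.

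Ccr2, the receptor of Ccl2, Ccl7 and Ccl12, went the other way from its ligands. It was at 68.5, 80.5 and 75.3 FPKM at day 5, 66.3 and 82.6 at day 14, and 148 and 98.8 at day 28. Both day 28 libraries lay above all others, with a rise of 0.74 ± 0.18 on the log2 scale from day 5 (adjusted p = 0.0259, edgeR with Benjamini-Hochberg adjustment). Ccr1, a receptor of Ccl3, Ccl6 and Ccl9, was at 109, 92.4 and 97.8 FPKM at day 5, 74.8 and 40.3 at day 14, and 61.8 and 55.5 at day 28, with all later libraries below day 5. Its difference just missed the threshold at day 28 (-0.75 ± 0.22, adjusted p = 0.0506, edgeR), and at day 14 it was -0.79 ± 0.22 (adjusted p = 0.0738). Without day 14 replicate 1 the day 14 value was -1.29 (adjusted p = 0.000539), and without replicate 2 it was -0.41 (adjusted p = 0.209). The receptors of Ccl24 and Ccl22 were scarce: Ccr3 lay between 0.957 and 3.42 FPKM, and Ccr4 had at most 4 fragments in a library.

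Ccr7, which guides mature dendritic cells to lymph nodes, was the other called receptor, at 1.43 ± 0.39 on the log2 scale above day 5 at day 28 (adjusted p = 0.04, edgeR with Benjamini-Hochberg adjustment). Both receptor calls changed with single libraries. Without any 1 day 5 library both were lost, and 0 or 1 of the 10 genes (Ccl17 without day 5 replicate 2) were called, at 6.42% to 7.57% of all genes. Without day 14 replicate 1 or 2 the log2 differences of day 28 from day 5 stayed at 0.74 for Ccr2 and 1.43 for Ccr7. Ccl17, the other CCR4 ligand, was at 1.71, 4.19 and 1.31 FPKM at day 5, 10.1 and 6.83 at day 14, and 6.86 and 8.47 at day 28, so that all later libraries lay above day 5 without a call, with log2 differences of 1.82 ± 0.52 and 1.69 ± 0.51 (edgeR, adjusted p = 0.0734 and 0.0552). Without day 14 replicate 1 the first was 1.53 (adjusted p = 0.147). Ccl22 exceeded Ccl17 in every library, by 1.15 to 4.93 times in FPKM. Of the other ligands, Ccl1, Ccl19, Ccl20, Ccl21b, Ccl21c and Ccl27b had no fragment in any library, and copies of Ccl21 and Ccl27 can share reads.

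**Figure D5:**
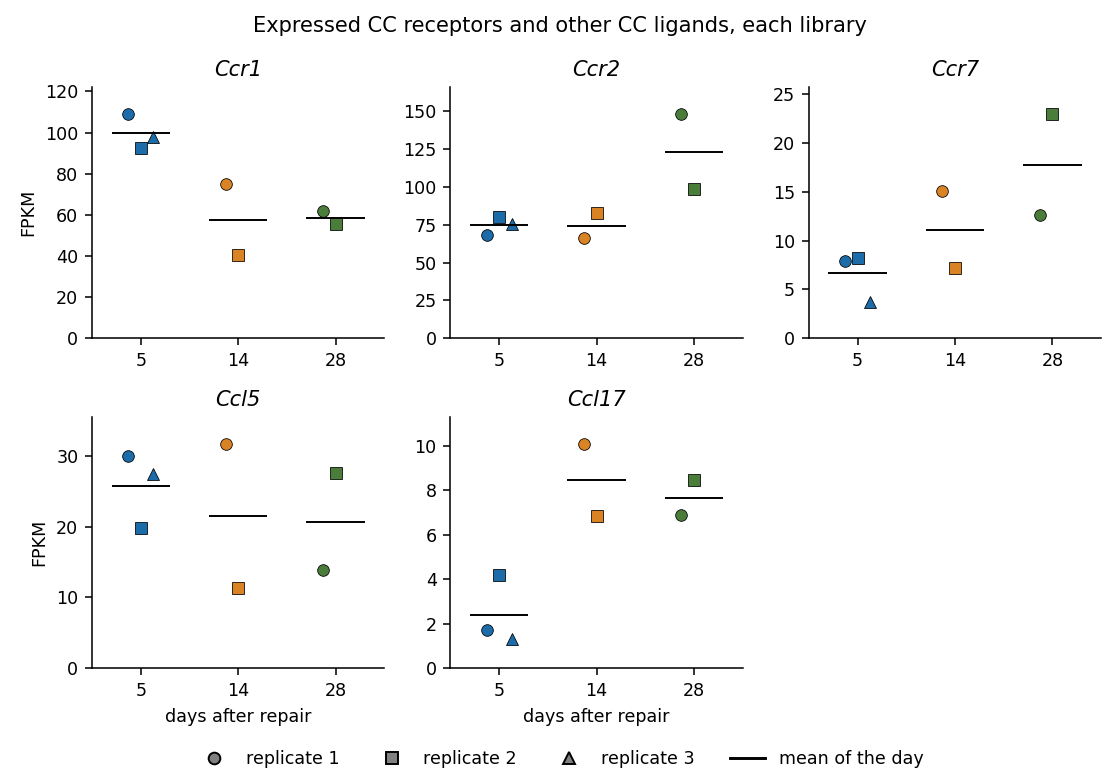
FPKM (vertical axes, linear from 0, scaled per gene) of 3 CC receptors and 2 other CC ligands against days after repair, where each point is 1 library, its shape gives the replicate number and the line is the mean of the day. Both day 28 libraries of Ccr2 (148 and 98.8) are the highest of the 7, Ccr1 is highest at day 5, and all 3 day 5 libraries of Ccl17 lie below the others.

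Markers of the sorted cells and of others also changed between days 5 and 28, beside the fall of the monocyte-attracting genes. Cd14, a sort marker, was at 2635 to 3003 FPKM at day 5 and at 1433 and 1799 at day 28 (log2 difference -0.76 ± 0.16, adjusted p = 0.0145), and Emr1, the gene of F4/80, at 365 to 470.0 and at 195 and 209 FPKM (-1.01 ± 0.17, adjusted p = 0.0065, edgeR with Benjamini-Hochberg adjustment). The 4 endothelial markers summed to 14.6 to 26.9 FPKM at day 5, 13.9 and 7.29 at day 14, and 6.59 and 3.64 at day 28. Of them Kdr and Pecam1 were called lower at day 28 than at day 5 (log2 differences -3.02 ± 0.42 and -1.80 ± 0.37). Cdh5 (-0.09 ± 0.36) and Cldn5 (-0.01 ± 1.53) were not called. Mbp, the myelin basic protein gene and the only tested one of 6 Schwann cell markers, rose by 0.75 ± 0.19 (adjusted p = 0.0296, edgeR), from 10.3 to 11.4 FPKM at day 5 to 19.5 and 17.2 at day 28, with 12.2 and 19.8 at day 14. Of the 7 macrophage markers 2 were called lower and 0 higher. Csf1r differed by 0.11 ± 0.12 on the log2 scale and did not pass the test. The part of these markers in the chemokine values was not tested.

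Over the 7 libraries, the genes whose log2(FPKM + 1) followed most closely the most abundant member of each subgroup were sought among 7556 tested genes. For Ccl8 they were Ly86, which encodes MD-1 (Pearson r = 0.98), Nhlrc2 (0.967) and Plekhm1 (0.966), and Ccl8 itself went with Ccl3 (0.928) and Ccl4 (0.901) more closely than with its neighbours Ccl12 (0.876), Ccl7 (0.822) and Ccl2 (0.808). Ccl6 was followed by Vps41 (0.983), Bnip2 (0.979) and Smarca5 (0.979), and of the other chemokines Ccl9 was the nearest (0.781). Ccl24 was followed by Tpm1, a tropomyosin gene (0.992), Las1l (0.988) and Nfx1 (0.987), and it ran against Ccl12 (-0.797), Ccl2 (-0.72) and Ccl7 (-0.71). These values rest on 7 points that share libraries and days, and they are given as a description.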

How the data were processed

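RNASeq was analysed in 7 libraries of sorted macrophages (3, 2 and 2 at days 5, 14 and 28). The study's text gives 3 per time point, and libraries other than these 7 were not analysed here. Per the labels and the study's methods, polyA+ RNA was sequenced single-end, trimmed with cutadapt 1.8, mapped to mm10 with TopHat2 2.0.13 and quantified with Cuffdiff 2.2.1. The authors deposited expected counts (raw fragments per gene), a scaled signal (the same multiplied by 1 factor per library) and FPKM values. How strand and reads with several positions were handled is not given in the sources used here. No quantification of the 10 genes was marked as failed.

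After rounding, the expected counts entered edgeR 4.0.16 (R 4.3.3) with TMM factors and its filter on low counts. The quasi-likelihood test was used, p-values were adjusted by Benjamini-Hochberg over 12858 genes, and genes under 0.05 were called, with all 7 libraries in 1 fit and 4 residual degrees of freedom. Genes with at most 3 fragments were taken as not detected, a limit for counting error alone. Alternatives were RLE and Cuffdiff factors, no filter, DESeq2 1.42.0, limma 3.58.1 on log2(FPKM + 1) or log2(FPKM + 0.1) for mean levels of 1 FPKM or more, only the days compared, a replicate block, each library left out, and an adjusted p under 0.01. Scripts were tested on simulated data. Tables and plots were made in Python 3.11.15 with pandas 2.3.3, numpy 2.4.6, biopython 1.88 and matplotlib 3.10.9. Members and lists were chosen with earlier results of these data known. Named were the 10 genes, the receptors of the members, every called gene of the pathway list, markers that moved with a member or were at 0, and for the most abundant member of each subgroup the 3 genes with the highest correlation among those with mean levels of 5 FPKM or more. Further genes of the lists (Ccl5, Ccl11, Ccl17, Ccl26 and those without fragments) were named after their values were seen, and some listed genes are not reported here. Coordinates are those of GENCODE M21 on GRCm38, the build that mm10 names, and promoters those of RefSeq.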

Additional observations from a re-analysis of the deposited data

How the results depend on the processing

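Of 450 recalculated log2 differences of the 10 genes (15 alternatives, 3 comparisons), 370 kept direction and side of the threshold, 38 gained and 24 lost a call, and 18 changed sign, none of them called in the reported fit. From day 5 to day 14, Ccl8 turned to -0.19 with limma at either pseudocount and Ccl3 to -0.032, and single libraries left out gave -1.09 to 0.69 for Ccl8, -0.58 to 0.49 for Ccl3 and -1.34 to 0.33 for Ccl4. From day 14 to day 28 these fits gave -1.21 to 0.60 for Ccl2, -1.37 to 0.71 for Ccl7, -1.67 to 0.11 for Ccl8, -1.05 to 0.016 for Ccl3, -0.98 to 0.69 for Ccl4 and -0.16 to 0.40 for Ccl6, and Ccl9 ran from -0.25 to 0.14 between days 5 and 28. The causes were not tested.

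Called members numbered 5 (days 5 to 14), 2 (days 14 to 28) and 7 (days 5 to 28) without a filter. In that setting 8.26%, 2.25% and 14.3% of all genes were called in either direction. DESeq2 called 3 and 1 members in the first 2 comparisons (10.6% and 2.47% of all genes). For days 5 to 14 limma called 0 at either pseudocount (2.03% and 2.27% of all genes). With only days 5 and 28 fitted the called members numbered 7, at 22.1% of all genes. At an adjusted p under 0.01 they numbered 0 for days 5 to 14 and 1 (Ccl24) for days 5 to 28. With 1 library left out they ranged from 0 to 5, from 0 to 7 and from 1 to 8. The share of all genes called also changed with the library left out. Without any 1 day 5 library the called members numbered 0, 0 and 2. The shares of all genes were then 0.407% to 0.830%, 0.00% and 6.42% to 7.57%. Of the other ligands and receptors, 2, 1 and 6 were called without a filter. DESeq2 called 2, 1 and 5 (10.6%, 2.47% and 16.9% of all genes). For days 5 to 28, 5 were called with only both days fitted and 0 at an adjusted p under 0.01. The shares of all genes without a filter, with only both days fitted and without 1 day 5 library were those given for the members. With 1 day 5 library left out 0, 0 and 0 or 1 of these were called. The log2 ratio of summed FPKM of day 14 to day 5 ranged, by the library left out, from -1.74 to 0.069 for the monocyte-attracting, from -0.68 to -0.23 for the Ccl3 to Ccl9 and from 0.42 to 0.88 for the Ccl22 and Ccl24 subgroup.

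Deviations of same-numbered libraries from their day means correlated by 0.175 and 0.0449 (days 5 and 14), -0.0538 (days 14 and 28) and 0.0842 and 0.0249 (days 5 and 28). Where a day has 2 libraries their deviations mirror each other, so these values cannot exclude a pairing by replicate number. A fit blocked on replicate number (replicate block) leaves 2 residual degrees of freedom. In it 0 members were called from day 5 to day 14 (0.0467% of all genes), where Ccl8 was at -0.24 and Ccl3 at -0.12. From day 5 to day 28 it called 2 (Ccl12 and Ccl24, at 5.72% of all genes), and 0 of the other ligands and receptors.

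With 2 libraries at days 14 and 28, the spread at day 14 enters each test through the shared estimate. Ccl22 and Ccl17 had as few as 76 and 9 fragments in a library, and the part of depth in the values was not tested.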

Other observations

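Together the 10 genes took 0.476%, 0.461% and 0.474% of all fragments in the day 5 libraries, 0.387% and 0.308% at day 14, and 0.422% and 0.333% at day 28, so that all later libraries lay below day 5. Of the summed FPKM of the 10 genes, Ccl6 alone made up 27.7% to 34.7% at day 5 and 20.0% to 40.9% later. Ccl9 took 8.01% to 9.54% at day 5 and 15.7% and 13.2% at day 28, with no overlap, although its own FPKM overlapped between these days. Ccl24 took 0.571% to 0.867% at day 5 and 3.41% and 3.83% at day 28, when its level was 0.897 and 0.597 times that of Ccl2, against 0.051 to 0.0839 times at day 5.

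Ccrl2, a receptor-like protein that binds chemerin without signalling, was the most abundant receptor gene of the list, at 503 to 664 FPKM in the 7 libraries, and passed the test in no comparison (log2 difference of day 28 from day 5 -0.09 ± 0.14, adjusted p = 0.679, edgeR with Benjamini-Hochberg adjustment). Ccl5 spanned 11.3 to 31.6 FPKM, with its highest and its lowest value in the day 14 libraries.

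Cd4, which mouse macrophages can also express, was at 2.30 to 3.63 FPKM at day 5, 13.1 and 7.54 at day 14, and 4.55 and 6.82 at day 28, while the T cell genes Cd3e, Cd3d and Cd3g had at most 10 fragments in a library.

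Darc, a decoy receptor of chemokines on red cells and venules, had 37 fragments in day 28 replicate 1, 5 in day 14 replicate 1, 1 in day 28 replicate 2 and 0 in the other 4 libraries.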
